A study of Rattus norvegicus with 9 samples.

Results

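The homeostatic astrocyte genes are 9 genes by which an astrocyte clears glutamate, moves water and bicarbonate, couples to its neighbours and runs its own metabolism: Slc1a2, Slc1a3, Glul, Aqp4, Slc4a4, Gja1, Gjb6, Aldoc and Aldh1l1. They were chosen by symbol from their known roles, with earlier results of these data known, and all 9 were found among the 34092 genes of the expression table. RNA-sequence was performed on primary hippocampal neurons of wild-type rats, prepared from fetuses of embryonic day 17 and stimulated at day 7 in vitro with human peptide at 1 nM for 24 h. The 3 groups were vehicle (Control), procalcitonin (PCT) and aminoprocalcitonin (NPCT), the peptide cut from the N-terminal end of PCT, with 3 libraries in each. The comparisons ask what each peptide does to the transcriptome of these cultures, and whether the fragment and its parent peptide act alike at the same dose and time. According to the study's methods the cultures received no mitotic inhibitor and RNA came from pooled biological replicates. The spread between the 3 libraries of a group may therefore be technical, and the p-values measure that spread only.

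Astrocytes surround synapses and blood vessels. Their membrane transporters, GLT-1 (Slc1a2) and GLAST (Slc1a3), take up the glutamate that neurons release, and glutamine synthetase (Glul) turns it into glutamine that is returned to neurons. The water channel of the astrocyte endfoot (Aqp4) and the sodium bicarbonate cotransporter NBCe1 (Slc4a4) serve water and pH balance, the connexins 43 (Gja1) and 30 (Gjb6) form the gap junctions that join astrocytes into a network, and aldolase C (Aldoc) and the folate enzyme Aldh1l1 are metabolic enzymes widely used as astrocyte markers. Reactive astrocytes commonly carry less of several of these transcripts, and more of genes such as Gfap.

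The members' promoters are shown because 8 of the genes moved together, as described below. RefSeq (GRCr8) holds 15 promoters for the 9 genes, each running from 250 bases before to 50 bases after an annotated start. Both strands were searched for 3 motifs: the core TTGGC of the NFI site, bound by factors that act in astrocyte differentiation, the STAT motif TTCNNNGAA, and the E-box CANNTG. The NFI core was in 7 of the 15 promoters, while 45.8% of all 33469 promoters of this length hold it. By gene it was in 5 of the 9, which cannot be set against that share, since several genes have more than 1 promoter. These 5 include Gjb6, which is not among the 8 that moved together. The STAT motif was in 0 of the 15, against 8.87% of all promoters, and the E-box was in 11 of the 15, against 72.1%. The 3 promoters of Slc1a3 start within 21 bases of each other and share 1 NFI core, which the 7 count 3 times. The motifs can also overlap one another, and a match is only a run of letters. The 7 promoters with the NFI core were the 3 of Slc1a3, the 1 of Slc4a4 and promoter 2 of Slc1a2, Glul and Gjb6, while promoter 1 of Slc1a2, Glul and Gjb6 did not hold the NFI core. The promoters printed below are examples: Glul promoter 2 and Slc4a4 promoter 1 held 3 matches each, the most among the 15, and Slc1a3 promoter 1, with 1 match, belongs to the most abundant member in Control. Capitals mark TTGGC or its reverse complement GCCAA.
Slc1a3 promoter 1, GRCr8 chr2:59557759-59558058, minus strand: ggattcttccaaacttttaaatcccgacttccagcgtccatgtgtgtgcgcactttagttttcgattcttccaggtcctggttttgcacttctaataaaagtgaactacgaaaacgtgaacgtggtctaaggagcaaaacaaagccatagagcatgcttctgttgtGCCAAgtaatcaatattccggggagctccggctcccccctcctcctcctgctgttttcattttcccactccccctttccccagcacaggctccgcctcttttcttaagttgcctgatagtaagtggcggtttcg
Glul promoter 2, GRCr8 chr13:68575816-68576115, plus strand: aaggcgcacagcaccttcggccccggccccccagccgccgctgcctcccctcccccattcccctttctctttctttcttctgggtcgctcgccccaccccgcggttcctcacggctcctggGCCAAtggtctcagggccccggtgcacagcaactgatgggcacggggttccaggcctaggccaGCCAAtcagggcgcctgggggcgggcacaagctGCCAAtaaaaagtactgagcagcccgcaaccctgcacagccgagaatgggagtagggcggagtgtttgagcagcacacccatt
Slc4a4 promoter 1, GRCr8 chr14:19468233-19468532, minus strand: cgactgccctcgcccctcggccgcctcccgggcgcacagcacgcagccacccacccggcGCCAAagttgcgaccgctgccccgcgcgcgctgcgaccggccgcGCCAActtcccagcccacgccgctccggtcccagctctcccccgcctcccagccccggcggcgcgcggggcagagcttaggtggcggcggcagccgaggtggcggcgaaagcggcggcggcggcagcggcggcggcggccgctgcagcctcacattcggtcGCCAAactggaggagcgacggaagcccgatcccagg
Aldoc, Aldh1l1, Aqp4 and Gja1, the other 4 genes, had no NFI core in these windows.

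The libraries held 13573056 to 17211642 fragments assigned to genes. Levels are FPKM, fragments per kilobase of gene model, scaled to the size of the library. PCT replicate 3 stood apart from the other PCT libraries (chi-square per degree of freedom of 21.6 and 18.9, against 6.38 between these other libraries), and NPCT replicate 3 from the other NPCT libraries (10.6 and 10.8, against 4.38). Microglial transcripts were the most uneven marker list: summed over 12 genes they reached 199 FPKM in NPCT replicate 3, against 43.7 and 49.8 in the other NPCT libraries, 33.0 to 46.4 in Control and 15.6 to 20.4 in PCT. The share of fragments from the mitochondrial genome was 5.18 to 5.84% in Control, 3.70 to 4.17% in NPCT and 4.11 to 6.21% in PCT. The label of the cells is primary hippocampal neurons, and the 12 neuronal markers summed to 2753 to 3147 FPKM over all libraries, with Stmn2 highest on the mean of the 9 libraries. Astrocyte transcripts were also abundant. Gfap, the standard astrocyte marker, was listed at 734 to 828 FPKM in Control, and the 9 members together summed to 2035 to 2105 FPKM there. In such mixed RNA, fewer astrocytes and less RNA per astrocyte cannot be told apart.

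The homeostatic astrocyte genes were lower with PCT as a group. The summed level of the 9 members was 1348 to 1432 FPKM in the PCT libraries, below every Control library (2035 to 2105) and every NPCT library (1940 to 2101). Of the 8 members that passed the filter on low values (a mean of at least 0.5 FPKM, which left 15958 genes), 8 were lower with PCT with an adjusted p no higher than 0.05, and 6 of these changed more than 1.5-fold as well and were DEGs. At that adjusted p 4 to 8 members passed over the 18 alternatives, 5 with no filter on low values and 4 without Control replicate 1, where Slc1a3, Gja1, Slc1a2 and Slc4a4 did not. Among all genes tested, 2.46% were lower at that adjusted p and 1.72% were DEGs that were lower (2.31% in either direction). The Control and PCT libraries did not overlap for any of the 8, with PCT lower, against 11.9% of all genes tested. The median log2 fold change of the members was -0.72, against 0.0046 over all genes tested. Throughout, fold changes are limma's on log2(FPKM + 0.1) with all 9 libraries in one fit, and p-values are Benjamini-Hochberg adjusted over all genes tested.

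**Figure D1:**
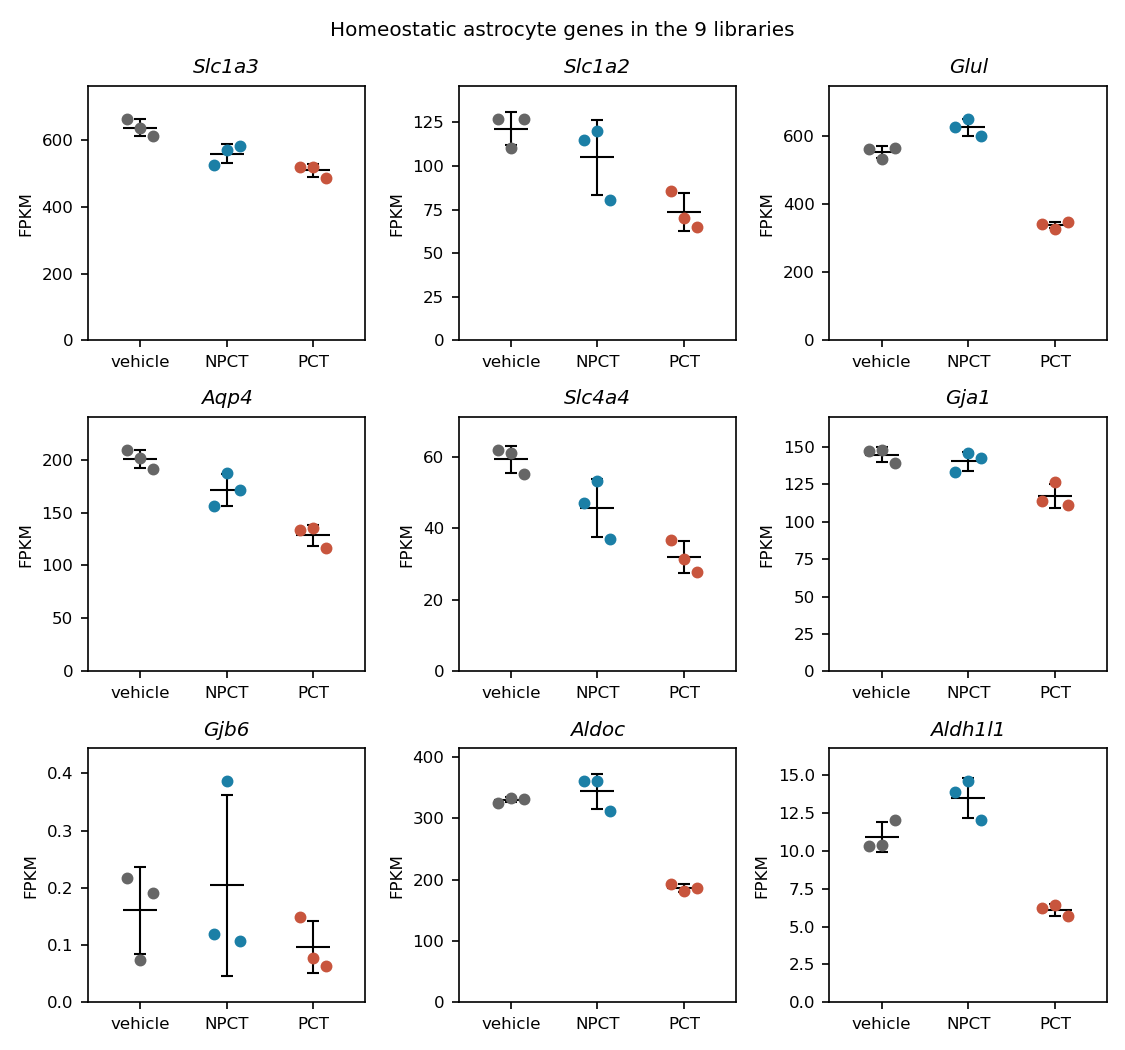
Level of each of the 9 homeostatic astrocyte genes, in FPKM on a linear axis from 0, in the vehicle (Control), NPCT and PCT libraries. Points are libraries in the order of replicates 1 to 3, horizontal bars are means and error bars are 1 SD (n = 3). The 3 PCT points lie below the 3 vehicle points for every gene but Gjb6, whose values are all under 0.4 FPKM.

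Slc1a3 and Glul were the most abundant members in every group, while Slc1a2, the other glutamate transporter, was the sixth by level. Slc1a3 (ENSRNOG00000016163, Rnor_6.0 chr2:57860834-57935363, minus strand), the transporter GLAST, was the most abundant member in Control, at 663, 636 and 612 FPKM. With PCT it was 520, 520 and 488 FPKM, and with NPCT 527, 569 and 583 FPKM. All 6 peptide libraries lay below the lowest Control library, and the NPCT and PCT libraries did not overlap either. It fell by 20.1% with PCT (log2 fold change -0.32, SE 0.06, adjusted p = 0.0279), under the 1.5-fold threshold, and did not pass the adjusted p in 9 of the 18 alternatives (up to 0.134). With NPCT the log2 fold change was -0.19 (SE 0.06), which did not pass (adjusted p = 0.0986, and 0.0459 to 0.268 over the 18 alternatives).

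Slc1a2 (ENSRNOG00000005479, Rnor_6.0 chr3:92640752-92665644, plus strand), the transporter GLT-1, was at 127, 110 and 127 FPKM in Control and fell to 85.7, 70.2 and 64.8 FPKM with PCT. With NPCT it was 115, 120 and 80.4 FPKM, the last of these being replicate 3, which lay within the range of the PCT libraries while the other NPCT libraries lay within that of Control. It fell by 39.6% with PCT (log2 fold change -0.73, SE 0.16, adjusted p = 0.0393). This was the least secure of the 6 calls: it was lost in 7 of the 18 alternatives, where the adjusted p rose to as much as 0.149. The gene model behind this value is 882 bases long, against 1684 to 5419 bases for the other members, so the level of Slc1a2 per length relative to theirs is uncertain, while its differences between groups do not depend on that length.

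Glul (ENSRNOG00000049560, Rnor_6.0 chr13:71331052-71340229, plus strand) was at 562, 534 and 566 FPKM in Control. It fell to 343, 329 and 348 FPKM with PCT and was 626, 650 and 602 FPKM with NPCT. The groups lay in 3 separate ranges, with PCT lowest and NPCT highest. It fell by 38.7% with PCT (log2 fold change -0.71, SE 0.06, adjusted p = 5.3e-04), and the call held in 18 of 18 alternatives. With NPCT the log2 fold change was 0.18 (95% interval 0.05 to 0.31), which did not pass (adjusted p = 0.0878, and 0.0374 to 0.575 over the 18 alternatives).

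Among the water and ion genes, Aqp4 (ENSRNOG00000016043, Rnor_6.0 chr18:6765945-6782996, minus strand) was at 209, 201 and 191 FPKM in Control, 157, 187 and 171 FPKM with NPCT and 133, 135 and 117 FPKM with PCT. The 3 groups did not overlap, with NPCT between Control and PCT. It fell by 36.0% with PCT (log2 fold change -0.64, SE 0.08, adjusted p = 0.00408). Without PCT replicate 3, the lowest library, the log2 fold change was -0.58 and the gene was no longer past 1.5-fold.

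Slc4a4 (ENSRNOG00000003134, Rnor_6.0 chr14:20479323-20920286, minus strand) was at 61.8, 60.9 and 55.0 FPKM in Control and at 36.7, 31.5 and 27.7 FPKM with PCT, and fell by 46.2% (log2 fold change -0.89, SE 0.14, adjusted p = 0.0109). With NPCT it was 47.1, 53.1 and 37.0 FPKM, all below the Control libraries and above the PCT libraries. The NPCT difference of -0.39 (SE 0.14) on the log2 scale did not pass (adjusted p = 0.112). Without Control replicate 1 the adjusted p for PCT was 0.057 and the call was lost.

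The connexins differed greatly in level. Gja1 (ENSRNOG00000000805, Rnor_6.0 chr20:37876650-37889089, plus strand) was at 147, 148 and 139 FPKM in Control, 133, 146 and 142 FPKM with NPCT and 114, 126 and 111 FPKM with PCT. The PCT libraries lay below all others, while the NPCT and Control libraries overlapped. With PCT it fell by 0.30 on the log2 scale (SE 0.07, adjusted p = 0.0380), under the 1.5-fold threshold, and did not pass the adjusted p in 9 of the 18 alternatives (up to 0.154). Gjb6 (ENSRNOG00000022116, Rnor_6.0 chr15:37400889-37410848, minus strand) was close to undetected: its libraries held 2 to 10 fragments each, 0.0744 to 0.217 FPKM in Control, 0.108 to 0.386 FPKM with NPCT and 0.0632 to 0.150 FPKM with PCT. The groups overlapped, it did not pass the filter, and no difference was detectable at this depth.

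Of the metabolic enzymes, Aldoc (ENSRNOG00000011452, Rnor_6.0 chr10:65586504-65590126, plus strand) was at 325, 334 and 332 FPKM in Control and at 193, 181 and 186 FPKM with PCT. It fell by 43.6% (log2 fold change -0.82, SE 0.07, adjusted p = 5.4e-04). With NPCT it was 361, 361 and 312 FPKM, on both sides of Control.

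Aldh1l1 (ENSRNOG00000047023, Rnor_6.0 chr4:123516788-123557501, minus strand) was the lowest of the members past the filter, at 10.3, 10.4 and 12.01 FPKM in Control. With PCT it was 6.21, 6.39 and 5.67 FPKM and fell by 43.6% (log2 fold change -0.83, SE 0.10, adjusted p = 0.00374). With NPCT it was 13.8, 14.6 and 12.01 FPKM, with the lowest NPCT library level with the highest Control library. The NPCT difference of 0.30 (SE 0.10) did not pass (adjusted p = 0.0932). The calls of Aldoc and Aldh1l1 with PCT held in 18 of 18 alternatives each.

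**Figure D2:**
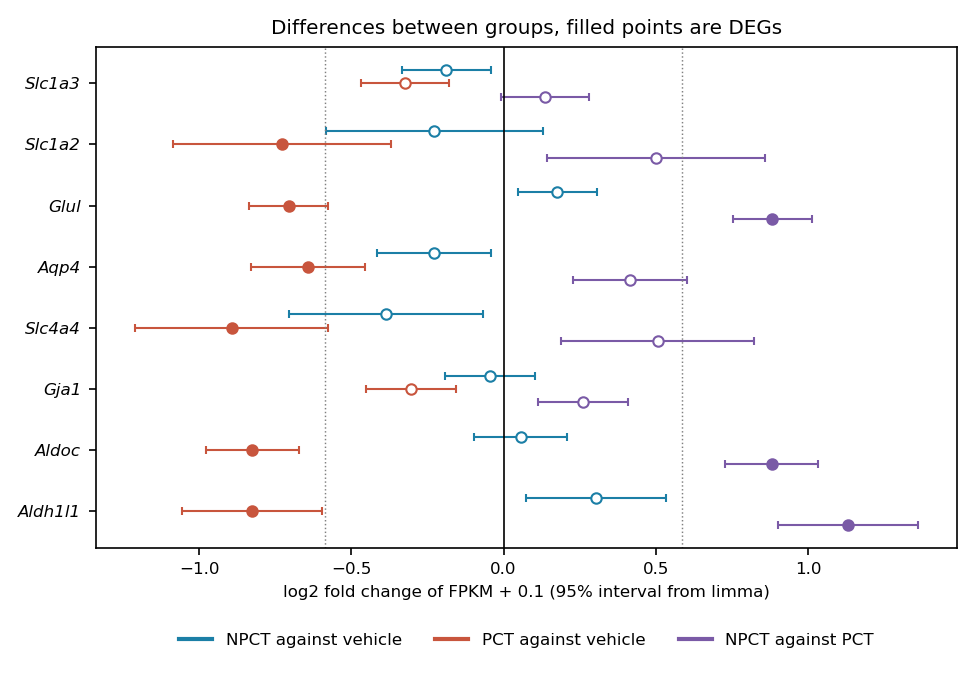
Log2 fold change of FPKM + 0.1 on the horizontal axis for the 8 members that passed the filter, in the 3 comparisons (colours), with 95% intervals from limma fitted to all 9 libraries. Filled points are DEGs and dotted lines mark 1.5-fold; all 8 PCT values lie below 0, with 6 filled, and no NPCT value against vehicle is filled.

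The fall with PCT was not of one size. The 95% intervals of Slc1a3 (-0.47 to -0.18) and Gja1 (-0.45 to -0.16) lay above those of Glul (-0.84 to -0.58), Aldoc (-0.98 to -0.67), Aldh1l1 (-1.06 to -0.60) and Slc4a4 (-1.21 to -0.58). The interval of Slc1a2 (-1.09 to -0.37) overlapped both, and that of Aqp4 (-0.831 to -0.457) overlapped that of Slc1a3. The ratio of 2 genes within a library does not depend on how that library was scaled, apart from the 0.1 FPKM added to each level. That addition is small beside the levels of all genes used here except Gjb6. In all, 4 such ratios were compared in 3 pairs of groups, 12 exact two-sided permutation tests over libraries, for which the smallest p is 0.1 with 3 against 3. The log2 ratio of Slc1a2 to Slc1a3 was -2.39 ± 0.13 (SD, n = 3) in Control and -2.80 ± 0.17 with PCT, without overlap (exact permutation p = 0.1, adjusted 0.20). The ratio of Aldoc to Aldoa, the aldolase of most tissues, was -0.13 ± 0.11 in Control, -0.22 ± 0.25 with NPCT and -0.99 ± 0.10 with PCT (exact permutation p = 0.1, adjusted 0.20, against either other group). In linear terms Aldoc was at 0.845 to 0.978 of Aldoa in Control and at 0.467 to 0.525 of it with PCT. Aldoa itself was at 362 ± 27.9 FPKM in Control and 371 ± 26.1 FPKM with PCT (SD, n = 3), and its log2 fold change of 0.04 did not pass (adjusted p = 0.875). The adjusted p-values of these ratios do not pass 0.05, which this design cannot reach. The ratio of Gjb6 to Gja1 rests on a few fragments, and its groups overlapped in all 3 pairs (exact permutation p of 0.6 to 1).

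**Figure D3:**
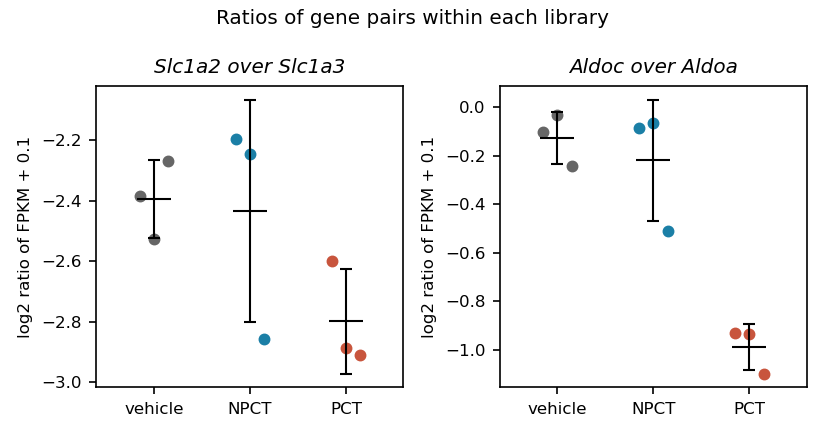
Log2 ratio of FPKM + 0.1 between 2 genes within each library for Slc1a2 to Slc1a3 and Aldoc to Aldoa. Points are libraries (vehicle, NPCT and PCT, replicates 1 to 3), horizontal bars are means and error bars are 1 SD (n = 3); the PCT points lie below the vehicle points in each panel, while NPCT replicate 3 is the lowest NPCT point in both.

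The order of the members by level was Slc1a3, Glul, Aldoc, Aqp4, Gja1, Slc1a2, Slc4a4, Aldh1l1 and Gjb6 in Control, and each gene's libraries lay apart from those of its neighbours. With NPCT the order was the same except that Glul (626 FPKM on average) stood above Slc1a3 (560 FPKM). With PCT the order was that of Control, but Aqp4 (117 to 135 FPKM) and Gja1 (111 to 126 FPKM) overlapped. The place of Slc1a2 in each order depends on its short gene model.

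NPCT gave no DEG among the members. In the same fit 35 genes, 0.219% of those tested, were DEGs with NPCT against vehicle, a number that ranged from 0 to 579 among the alternatives, while the number of members called was 0 in each of them, limma-voom on fragments included. In some alternatives Glul, Slc1a3 and Aqp4 passed the adjusted p without passing 1.5-fold (lowest adjusted p 0.0374, 0.0459 and 0.0497). At an unadjusted p under 0.05 there were 5 of 8 members: Slc1a3, Aqp4 and Slc4a4 lower, and Glul and Aldh1l1 higher. Among all genes tested 29.3% reached that unadjusted p with NPCT against vehicle, 18.9% with PCT against vehicle and 33.1% in NPCT against PCT. The same 5 members were those whose Control and NPCT libraries did not overlap, against 40.3% of all genes tested, but Aldh1l1 was among them only by 12.0144 against 12.0141 FPKM in the nearest libraries. The median log2 fold change of the members was -0.12, against 0.01 over all genes tested, and ranged from -0.14 to -0.05 with 1 library left out. The 95% intervals bound what remained undetected: Gja1 differed by -0.19 to 0.10, Aldoc by -0.10 to 0.21, and Slc1a2, with the widest interval, by -0.58 to 0.13 on the log2 scale.

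The peptides differed from each other at the same dose and time. This comparison uses the PCT libraries already compared with Control, so its values are not a second, independent view of them. All 8 members tested were higher with NPCT than with PCT, 6 of them with an adjusted p no higher than 0.05 (7.97% of all genes tested were higher at that level) and 3 as DEGs (4.38% were higher and 5.76% in either direction). The NPCT and PCT libraries did not overlap for 7 of the 8, with NPCT higher, against 15.4% of all genes tested. The DEGs were Aldh1l1 (log2 difference of NPCT minus PCT 1.13, 95% interval 0.90 to 1.36, adjusted p = 5.4e-04), Glul (0.88, 0.75 to 1.01, adjusted p = 1.8e-04) and Aldoc (0.88, 0.73 to 1.03, adjusted p = 3.1e-04). Each was a DEG in 18 of 18 alternatives. Aqp4 (0.42, adjusted p = 0.0146), Slc4a4 (0.51, adjusted p = 0.0414) and Gja1 (0.26, adjusted p = 0.0302) passed the adjusted p but not 1.5-fold. In the alternatives 3 to 8 members passed it, 3 in a fit of the 2 groups compared and 8 with limma-voom: Slc4a4 did not pass in 9 of 18 (up to 0.118), Gja1 in 8 (up to 0.0942) and Aqp4 in 1 (0.0569). Slc1a2 differed by 0.50 (95% interval 0.14 to 0.86, adjusted p = 0.0611) and Slc1a3 by 0.14 (-0.01 to 0.28, adjusted p = 0.176), and neither passed. Without NPCT replicate 3, the library with the high microglial transcripts, Slc1a2 (0.68, adjusted p = 0.0175) and Slc4a4 (0.65, adjusted p = 0.0202) became DEGs as well, making 5 of 8, and the median of the members rose from 0.50 to 0.67.

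Other genes of the same pathways moved less uniformly. Of 20 tested genes of glutamate, glutamine and GABA handling beyond the members, 1 was a DEG with PCT against vehicle (2.31% of all genes tested). This was Slc7a11, the cystine-glutamate exchanger, which fell by 1.24 on the log2 scale (SE 0.11, adjusted p = 6e-04), from 92.9 ± 7.63 to 39.2 ± 3.80 FPKM (SD, n = 3). The median of that list was -0.06. In NPCT against PCT, Slc7a11 (0.92) and the GABA transporter Slc6a11 (0.60) were DEGs, higher with NPCT (4.38% of all genes tested). Slc6a11 was not a DEG without NPCT replicate 1 or 2 or without PCT replicate 2. None of the 20 was a DEG with NPCT against vehicle by limma or by limma-voom, and 7 had an unadjusted p under 0.05 (29.3% of all genes).

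Of 20 tested genes of water and ion balance, 2 were DEGs with PCT, both lower (1.72% of all genes tested). The 2 included Kcnj10, the potassium channel Kir4.1, which fell by 0.88 on the log2 scale (adjusted p = 0.0041). A further 4 were lower with an adjusted p no higher than 0.05 without passing 1.5-fold, making 6 that were lower at that adjusted p (2.46% of all genes tested). The median of the list was -0.18. Without PCT replicate 3 there were 4 such DEGs, and 3 without NPCT replicate 1 or 3. In NPCT against PCT 6 of the 20 were DEGs, all higher with NPCT (4.38% of all genes tested). They included Kcnj10 (1.11), Mlc1 (0.76), a membrane protein of astrocyte endfeet, and Fxyd1 (0.87), a regulator of the sodium pump. With NPCT against vehicle limma called none, limma-voom called 1, and 10 had an unadjusted p under 0.05 (29.3% of all genes).

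Of 21 other connexins, pannexins and the junction protein Tjp1, 8 passed the filter and none was a DEG in any of the 3 comparisons by limma or limma-voom. An unadjusted p under 0.05 was reached by 2 with PCT against vehicle, 3 with NPCT against vehicle and 1 in NPCT against PCT (18.9%, 29.3% and 33.1% of all genes). The highest in level were Tjp1 (35.0 FPKM in Control and 29.2 FPKM with PCT) and Panx1 (28.7 and 26.3 FPKM). Of 17 tested genes of folate and glucose metabolism, Aldh1l2, the mitochondrial relative of Aldh1l1, was the 1 DEG, lower with PCT (-0.79, adjusted p = 0.0063) and higher in NPCT against PCT (0.79, adjusted p = 0.0038). Among all genes tested, 2.31% were DEGs with PCT against vehicle and 5.76% in NPCT against PCT. None of the 17 was a DEG with NPCT against vehicle by limma or limma-voom, and 2 had an unadjusted p under 0.05 (29.3% of all genes).

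The fall with PCT reached other astrocyte genes. Of 34 further astrocyte genes tested, 9 were DEGs with PCT, all lower (1.72% of all genes tested). At an adjusted p no higher than 0.05, 16 were lower (2.46% of all genes tested), and the median log2 fold change was -0.34. Among the 9 DEGs the smallest adjusted p-values belonged to Plpp3, a lipid phosphatase (-0.90), Tril, a Toll-like receptor accessory protein (-0.95), Gpr37l1, a glial receptor (-1.35), and Ednrb, the endothelin B receptor (-1.18). Leaving out 1 library at a time gave 6 to 11 such DEGs, the lowest without Control replicate 3 and the highest without NPCT replicate 3. In NPCT against PCT 14 of the 34 were DEGs, all higher with NPCT (4.38% of all genes tested). Plpp3, Tril, Gpr37l1 and Entpd2, an ectonucleotidase, were first by adjusted p. With NPCT against vehicle limma called none, limma-voom called 1 and 8 had an unadjusted p under 0.05 (29.3% of all genes). Apoe, the lipid carrier and the most abundant of the list, was 1325 ± 90.9 FPKM in Control and 2455 ± 451 FPKM with NPCT (SD, n = 3; log2 fold change 0.88, adjusted p = 0.0509).

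**Figure D4:**
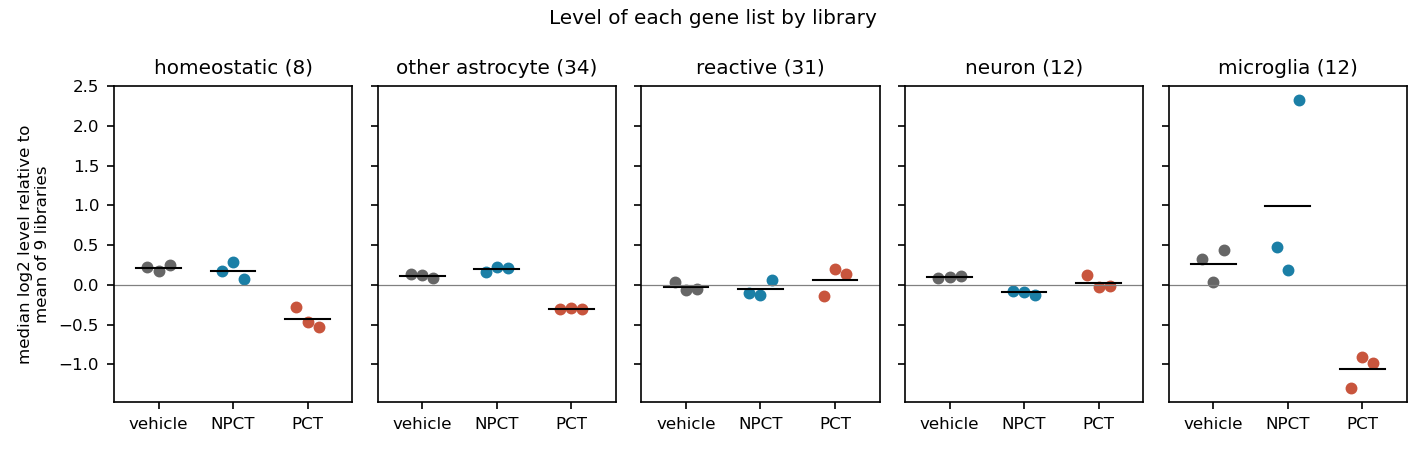
Median over the genes of a list, in each library, of the log2 level of FPKM + 0.1 relative to the gene's mean over the 9 libraries, for the 8 tested homeostatic astrocyte genes and for the other astrocyte, reactive astrocyte, neuron and microglia lists. Points are libraries (vehicle, NPCT and PCT, replicates 1 to 3) and bars are group means; the homeostatic and other astrocyte lists are lowest in the PCT libraries (-0.53 to -0.28 and -0.31 to -0.29), and the microglia list is also lowest there and highest in NPCT replicate 3 (2.32).

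Not every astrocyte gene fell. Gfap was 828, 765 and 734 FPKM in Control, 773, 818 and 938 FPKM with NPCT and 899, 931 and 926 FPKM with PCT. The PCT libraries lay above the Control libraries, but the log2 fold change of 0.25 did not pass (adjusted p = 0.147). Of 31 tested genes of reactive astrocytes, 6 were DEGs that were higher and 6 that were lower with PCT, and the median of the list was 0.02 (2.31% of all genes tested were DEGs in either direction and 1.72% were lower). The lower ones were led by the C1 inhibitor Serping1 (-4.80), the lipocalin Lcn2 (-4.74) and complement C3 (-4.09), and the first of the higher ones was Timp1, an inhibitor of metalloproteinases (1.14). Lcn2 stood at 1025 to 1321 FPKM in Control and at 27.6 to 74.9 FPKM with PCT. With NPCT against vehicle limma called none of the 31, limma-voom called 1 and 3 had an unadjusted p under 0.05 (29.3% of all genes).

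Markers of other cells moved with the same comparison in part. The 12 tested microglia markers all had fold changes below 0 with PCT, 4 as DEGs (Cx3cr1, Aif1, Tyrobp and Csf1r). Among all genes tested 1.72% were DEGs that were lower, and 2.31% in either direction. Limma-voom called 2 of the 12. With 1 library left out limma called 1 to 5 (5 without NPCT replicate 3, 3 without NPCT replicate 2 and 1 or 2 without any other). The sums of the list were 15.6 to 20.4 FPKM with PCT against 33.0 to 46.4 FPKM in Control, and none of the 12 was listed at 0. Of the 6 progenitor markers, which radial glia and young astrocytes share, the most abundant, Fabp7, fell by 0.44 on the log2 scale with PCT (adjusted p = 0.0105), under 1.5-fold. The progenitor sums, which are mostly Fabp7 (1902 FPKM on average in Control), were 1421 to 1592 FPKM with PCT against 1923 to 2044 FPKM in Control, and the median log2 fold change of the list was -0.09. Nes, another of the 6, rose by 0.83 (adjusted p = 0.0498), a call that was lost in 7 of 9 fits with 1 library left out (adjusted p of up to 0.157). The 12 neuron markers gave no DEG with PCT by limma or limma-voom (2 with an unadjusted p under 0.05, against 18.9% of all genes). Nefl, a neurofilament subunit, was lower under 1.5-fold (-0.29, adjusted p = 0.0417), and the sums of the list overlapped between PCT (2883 to 3147 FPKM) and Control (2934 to 3036 FPKM). Of 11 tested oligodendrocyte lineage markers 9 had fold changes above 0 with PCT (median 0.22) and 8 lay above Control in every library (13.1% of all genes tested did), while the sums of the list were 492 to 501 FPKM with PCT against 515 to 543 FPKM in Control. None was a DEG by limma or limma-voom, 4 had an unadjusted p under 0.05 (18.9% of all genes), and Olig1 was lower with an adjusted p of 0.0016 (log2 fold change -0.51). All 6 fibroblast markers had fold changes above 0 (median 0.34), with 1 DEG, Col3a1 (0.87), a call lost in 8 of 9 fits with 1 library left out (adjusted p of up to 0.162), and their sums were 13.9 to 23.4 FPKM with PCT against 11.7 to 15.4 FPKM in Control. Of 7 markers of dividing cells, 4 ependymal and 2 endothelial or pericyte markers tested, none was a DEG with PCT by limma or limma-voom, and 1 in each list had an unadjusted p under 0.05 (18.9% of all genes). In NPCT against PCT, where the homeostatic genes were higher with NPCT, the 12 microglia markers all had fold changes above 0, with a median of 2.09 on the log2 scale (1.42 without NPCT replicate 3). Of these, 8 were DEGs (5 without NPCT replicate 1, PCT replicate 1 or PCT replicate 2, and 7 by limma-voom), against 4.38% of all genes tested that were DEGs and higher. Of the 6 progenitor markers 3 were higher with an adjusted p no higher than 0.05 (7.97% of all genes tested), none as a DEG by limma or limma-voom (4 with an unadjusted p under 0.05), and the sums were 2123 to 2192 FPKM with NPCT. The neuron markers summed to 2753 to 2837 FPKM with NPCT and gave no DEG there by limma or limma-voom (8 of 12 with an unadjusted p under 0.05, against 33.1% of all genes). At an adjusted p no higher than 0.05, 2 neuron markers were higher with NPCT and 3 lower. Of 31 reactive astrocyte genes, 8 were DEGs that were higher with NPCT and 7 that were lower (5.76% of all genes were DEGs). Of the 6 fibroblast markers 5 had fold changes below 0 (median -0.52), with Col3a1 a DEG (-0.90, lost in 3 of 9 fits with 1 library left out). Among markers of dividing cells Aurkb was a DEG, higher with NPCT (0.61, lost in 1 of 9). The part of these cell types in the differences of the homeostatic genes was not tested.

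The profile of the 8 tested members over the 9 libraries (the median of their centred log2 levels) was compared with that of 10056 other named genes with a mean of at least 5 FPKM, by the mean absolute difference over the libraries. Closest were Fzd2, a Wnt receptor (0.054), Sesn3, a stress-response sestrin (0.057), Tmem229a, a transmembrane protein (0.057), Pdzrn3, a ubiquitin ligase (0.060), and Gramd2b, a GRAM domain protein (0.062). The members themselves lay at 0.097 (Aqp4) to 0.206 (Aldh1l1) from their own median. These 5 genes were chosen for their likeness, so their values are a description: Sesn3, for example, was at 59.1 FPKM in Control, 57.8 FPKM with NPCT and 37.1 FPKM with PCT on average.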

How the data were processed

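Per the submitters' processing notes and the study's methods, the authors aligned poly(A) RNA-sequence reads to Rnor_6.0 with HISAT2 2.0.5, counted fragments per gene with featureCounts 1.5.0-p3 and deposited FPKM per gene for 9 libraries. The deposited FPKM times gene length came out as whole multiples of 1 step per library (tolerance 0.02) for at least 99.99% of values, which gave the fragments per gene, and each library was already scaled by its median ratio, so FPKM with and without such scaling were equal, and the 18 alternatives do not count this one. Whether counting used strand is not given in the sources used here, and no annotated gene of the table overlaps a member.

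FPKM were tested with limma 3.58.1 in R 4.3.3 on log2(FPKM + 0.1), with a variance trend, 1 mean per group and all 9 libraries in one fit, for genes with a mean of at least 0.5 FPKM. P-values were adjusted by Benjamini-Hochberg over the genes tested, and DEGs were genes past 1.5-fold whose adjusted p was 0.05 or lower. The authors tested counts, in place of which FPKM were tested here. Depth was 13573056 to 17211642 fragments per library, and among the members Gjb6 rests on 2 to 10 fragments per library and Aldh1l1 on 273 to 629. Ratios within libraries were compared by exact permutation tests (Python 3.11.15, scipy 1.17.1). The code was tested on simulated data.

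Groups follow the sample titles. Same-numbered libraries did not deviate together (correlations of -0.07 to 0.03), so replicate numbers were not used as pairs. Alternatives were other pseudocounts (1 and 0.01), filters, quantile normalization, a fit of the 2 groups compared, a replicate block, removal of a gene length trend, limma-voom on fragments, and leaving out each library. Named were all 9 members, Gfap, up to 4 DEGs with the smallest adjusted p of each pathway list (or, with none, the 2 genes of highest level), the highest marker of a list, and the 5 genes of most similar profile; Apoe, Aldoa, and single markers of other cell types are named beyond that rule, after their values were seen. The members and lists were chosen with earlier results of these data known; 8 listed symbols were not matched in the table. Protein sequences were not used here, and 1 of the 4 ratios and some genes of the lists are not reported here.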

Additional observations from a re-analysis of the deposited data

How the results depend on the processing

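The fall of the members with PCT kept its direction for all 8 genes under each of the 18 alternatives, with 4 to 6 members called (4 without Control replicate 1 or without PCT replicate 3) and a median of -0.78 to -0.68 when 1 library was left out. In NPCT against PCT, 3 to 5 members were called and the median was 0.39 to 0.67 when 1 library was left out, the highest of both without NPCT replicate 3. Numbers of DEGs over all genes depended more on the setting. With NPCT against vehicle, 35 became 208 with a mean of at least 1 FPKM, 9 with no filter on low values, 189 with quantile normalization, 579 in a fit of the 2 groups compared, 122 with the length trend removed, 391 with limma-voom on fragments, and 0 to 562 with 1 library left out (562 without PCT replicate 3, 220 without PCT replicate 1, at most 2 without any other single library). With PCT against vehicle the range with 1 library left out was 172 to 398. In NPCT against PCT 919 became 454 in a fit of the 2 groups, and 525 to 1623 with 1 library left out; the cause was not tested. With the replicate number as a block, NPCT against vehicle gave 319 DEGs, while members called stayed at 0, 6 and 3 in the comparisons of NPCT with vehicle, PCT with vehicle and NPCT with PCT. Aldoc with NPCT, 0.06 in log2, turned to -0.041 with quantile normalization and to -0.0086 with the length trend removed. Ratios with no difference beyond their spread also turned. Gjb6 to Gja1 was 0.22 (PCT minus vehicle) and -0.13 (NPCT minus PCT) with a pseudocount of 1. With 1 library left out it ranged from -0.36 to 0.070 in PCT minus vehicle, from -0.17 to 0.42 in NPCT minus vehicle and from -0.092 to 0.50 in NPCT minus PCT, while in NPCT minus vehicle Slc1a2 to Slc1a3 ranged from -0.16 to 0.17 and Aldoc to Aldoa from -0.17 to 0.052. Depth allows no statement on Gjb6. The median of the members with NPCT against vehicle ran from -0.14 to -0.05 with 1 library left out and from -0.18 to -0.04 under the other settings.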
